A study of Homo sapiens with 24 samples.

Results

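SNRNP200 and G3BP1 were compared by the RNA stretches that each protein enriched in untreated HEK293 cells, a human embryonic kidney epithelial line. SNRNP200 was immunoprecipitated from the cytoplasmic fraction and G3BP1 from cells for which the labels name no fraction. The compared items were every window in the deposited list of untreated cytoplasmic SNRNP200 and every window in the deposited list of G3BP1, with windows repeated in the G3BP1 list counted once. This gave 4182 SNRNP200 windows and 3023 G3BP1 windows, or 6787 windows in either list, out of 225825 windows in the 6 lists of the series. A window is a strand-specific stretch of at most 100 bases on hg38. Windows were called identical when chromosome, start, end and strand were the same.

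The method was eCLIP, in which ultraviolet light links a protein to the RNA it touches, the protein is immunoprecipitated, and the RNA fragments that come with it are sequenced. Each immunoprecipitate (IP) is set against an input, a library of the same lysate taken without the immunoprecipitation. The labels give 2 IP and 2 input libraries for each protein, which is 8 of the 24 libraries of the series. The labels do not say if the 2 replicates came from separate cultures, and the spread between them may be technical. The labels list the same antibody number for all 3 proteins of the series, and their general treatment field names 500 µM of arsenic also for the libraries that carry no treatment in their own field. The untreated state and the protein of each library were taken from the titles and the sample fields.

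SNRNP200, also called Brr2, is the RNA helicase of the U5 small nuclear ribonucleoprotein that unwinds the U4 and U6 snRNAs during spliceosome activation, and it is known mainly as a nuclear protein. G3BP1 is a cytoplasmic RNA-binding protein that nucleates stress granules, the condensates of stalled mRNAs and proteins that form when translation initiation is blocked. In cells without stress, G3BP1 is dispersed in the cytoplasm and associates with mRNAs and ribosomal subunits.

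The G3BP1 list held a pair of sets that were normalised apart, told from each other by their GC classes (the bins of G and C content in which windows were scored). One set had 1254 entries, each found in at most 2 replicates. The other had 1988 entries found in up to 3 replicates, 654 of them in all 3, which goes against the 2 replicates in the labels. The sets had 219 windows in common, and none of these had the same IP and input counts in both sets. In those windows the log2 enrichment over input was higher by a median of 1.26 in the set of up to 2 replicates. Because of this split, counts and shares are given for the 2 sets, and for the whole G3BP1 list where stated.

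The labelled fraction of the SNRNP200 list was checked by its intron share. Introns, including those stretches near splice sites, held 1.08% of the cytoplasmic SNRNP200 windows (45 of 4182), against 49.0% of the untreated whole-cell SNRNP200 windows (89175 of 182066). MALAT1 and NEAT1, long noncoding RNAs retained in the nucleus, had no window in either compared list. Only 2 members of the group of nuclear-retained long noncoding RNAs had a window in any list of the series. TUG1, found in both compartments, was 1 of these 2, with 3 SNRNP200 windows and none for G3BP1. MALAT1 and NEAT1 thus cannot both have had a window in the whole-cell lists. Their absence here therefore does not inform on the fraction.

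SNRNP200 windows lay mostly in 3′ untranslated regions (3′UTRs), and this share was larger than in either G3BP1 set. Of the SNRNP200 windows 67.6% were in 3′UTRs (95% exact binomial interval 66.1 to 69.0), against 44.2% (41.4 to 47.0) of the G3BP1 set of up to 2 replicates and 6.99% (5.91 to 8.2) of the set of up to 3. Over the whole G3BP1 list the share was 21.6%. Coding sequence held 20.3% of the SNRNP200 windows (19.1 to 21.6). The G3BP1 sets fell on either side of this, with 12.3% (10.5 to 14.2) in the set of up to 2 replicates and 69.4% (67.3 to 71.4) in the set of up to 3. The direction of the coding difference therefore depended on the set. It was 8.02 percentage points higher for SNRNP200 against the set of up to 2 replicates and −49.1 points against the set of up to 3. These intervals cover counting error only, and neighbouring windows of a transcript are not independent.

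The smaller classes also separated the lists. Introns held 1.08% of the SNRNP200 windows (0.786 to 1.44), against 16.7% (14.6 to 18.8) and 6.94% (5.86 to 8.15) in the G3BP1 sets of up to 2 and up to 3 replicates, and 9.2% over the whole G3BP1 list. Start codon windows made up 1.58% of the SNRNP200 list, against 4.47% and 4.48% of the same sets. Exons of small RNAs held 0 of 4182 SNRNP200 windows, against 39 windows (3.11%) and 27 windows (1.36%). Windows in 5′UTRs were 4.95% of the SNRNP200 list, between the 10.7% of the set of up to 2 replicates and the 2.77% of the set of up to 3. Since the G3BP1 libraries carry no fraction label, the fraction and the protein cannot be told apart in these differences.

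**Figure D1:**
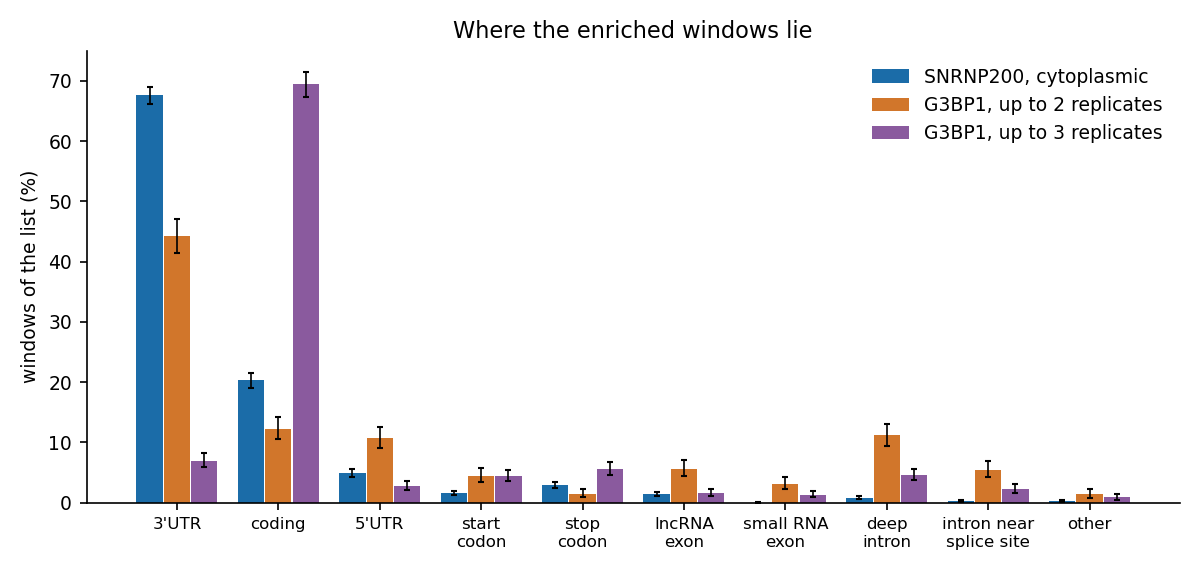
Share of the windows of each list (y axis, percent) by annotated feature (x axis) for cytoplasmic SNRNP200 and the 2 sets of the G3BP1 list; error bars are 95% exact binomial intervals. The 3′UTR bar is highest for SNRNP200 at 67.6%, and the coding bar is highest for the G3BP1 set of up to 3 replicates at 69.4%.

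The 2 lists shared 418 identical windows, which is 10.0% of the SNRNP200 windows and 13.8% of the G3BP1 windows. The set of up to 2 replicates held 239 of them (5.71% of SNRNP200, 19.1% of that set) and the set of up to 3 held 218 (5.21% and 11%). By feature, 248 of the 418 lay in 3′UTRs, 118 in coding sequence, 16 in exons of long noncoding RNAs and 15 in 5′UTRs. With the set of up to 2 replicates, 202 of the 239 were in 3′UTRs and 9 in coding sequence, whereas with the set of up to 3, 73 of the 218 were in 3′UTRs and 116 in coding sequence. Among all 3′UTR windows, 8.78% of those of SNRNP200 and 37.9% of those of G3BP1 were identical to a window of the other list. At q under 0.05 in both lists, 43 identical windows were left, since 398 SNRNP200 windows and 1185 G3BP1 windows pass that threshold.

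Over the whole G3BP1 list the shared windows had a lower GC content than the rest, and for SNRNP200 also more reads. Their median GC content was 0.447, against 0.468 for the SNRNP200 windows that G3BP1 did not share and 0.561 for the G3BP1 windows that SNRNP200 did not share. In the set of up to 2 replicates the medians were 0.351 for shared and 0.553 for other windows, and in the set of up to 3 they were 0.52 and 0.561. The value of 0.52 is above the 0.468 of the SNRNP200 windows not shared with the whole G3BP1 list. Medians of the SNRNP200 windows not shared with each set alone were not computed. 3′UTRs held 59.3% of the shared windows, 67.6% of the SNRNP200 list and 21.6% of the G3BP1 list. Over the whole list, median GC in 3′UTR windows was 0.364 where shared. It was 0.402 and 0.396 in unshared windows of SNRNP200 and G3BP1. In coding windows these values were 0.54, 0.545 and 0.567. SNRNP200 stop codon windows went the other way (0.54 and 0.53). The median IP count of the SNRNP200 windows was 52.5 where shared and 28 where not. For the G3BP1 windows it was 22 in both groups. CAPRIN, as the labels name the remaining protein of the series, had 306 of the 418 shared windows (73.2%) in its own list, against 32.8% of all SNRNP200 windows and 55.8% of all G3BP1 windows. The list of cytoplasmic SNRNP200 after arsenic held 181 of the 418 (43.3%).

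Read depth differed less in the IP than in the input. A SNRNP200 window had a median of 30 IP reads and 3 input reads, against 22 and 6 for the G3BP1 list. The sets of up to 2 and up to 3 replicates had 22 and 23 IP reads but 2 and 8 input reads, so the direction of the input difference turned with the set. Input was 0 in 12.1% of the SNRNP200 windows, against 19.5% of the set of up to 2 replicates and 1.46% of the set of up to 3. In all, the SNRNP200 windows held 189220 IP reads and 27994 input reads.

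A few windows that both proteins shared began at the 5′ end of a transcript. Of the SNRNP200 windows 45 (1.08%) overlapped the first 50 bases of a transcript in the RefSeq promoter table, against 51 (4.07%) of the G3BP1 set of up to 2 replicates and 56 (2.82%) of the set of up to 3. Identical windows that reach the first 20 bases were found for 5 genes of that table, and all 5 came from the set of up to 3 replicates. RPL4 and RPL24 encode ribosomal proteins and RACK1 a protein of the small ribosomal subunit; mRNAs of this class are known for pyrimidine-rich 5′ ends through which their translation is regulated. H2AC19 and H2BC12 encode histones, whose near-identical gene copies make the assignment of reads uncertain. The sequences show which bases at the transcript start lay inside the shared window. Reads were counted per window, so coverage of single bases is not known. For RPL4, RPL24, H2AC19 and H2BC12 the window edge is the RefSeq start itself. Each line runs from 10 bases before the RefSeq start to 20 bases into the transcript (GRCh38.p14), with the bases inside the shared window in capitals.
RPL4, chr15:66504836-66504865, minus strand: cgggagtggtAAGCACTTCCTTTTCCTGTG
RPL24, chr3:101686699-101686728, minus strand: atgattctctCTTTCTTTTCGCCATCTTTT
RACK1, chr5:181243887-181243916, minus strand: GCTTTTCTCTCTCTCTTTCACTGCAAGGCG
H2AC19, chr1:149851051-149851080, plus strand: gcgttttcggCGACTTTCCCGATCGCCAGG
H2BC12, chr6:27146836-27146865, minus strand: ccttgctcccATTACTTCCCGTTTTCTCGA
For RACK1 the window began upstream of the RefSeq start, so all 30 bases are inside it.

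The RPL4 window (chr15:66504791-66504855) had 682 IP and 69 input reads for SNRNP200, with log2 enrichments of 2.64 and 2.65 in the 2 replicates. For G3BP1 it had 24 IP and 9 input reads, and the lowest and highest replicate values were 2.1 and 2.71. The RPL24 window (chr3:101686677-101686718) had 119 IP and 41 input reads for SNRNP200, against 21 and 20 for G3BP1. In both windows the replicate values of the 2 proteins overlapped: RPL24 had 1.34 and 2.75 for SNRNP200, and 1.8 to 1.82 for G3BP1.

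By gene, 1818 genes had a SNRNP200 window and 1232 a G3BP1 window, and 564 had both. These 564 are 31.0% of the SNRNP200 genes and 45.8% of the G3BP1 genes. Over the 6 lists of the series 9792 genes had a window; of these, 18.6% had a SNRNP200 window, 12.6% a G3BP1 window and 5.76% both. The set of up to 2 replicates covered 8.05% of these genes and the set of up to 3 covered 7.4%. Of the 564 shared genes, 231 (41.0%) had an identical window. In the other 333, the nearest SNRNP200 and G3BP1 windows were a median of 1199 bases apart on the genome.

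Within the shared genes the 3′UTR share of windows was more often larger for SNRNP200 than smaller, and it was equal in many genes. In 290 of the 564 genes the 3′UTR share of windows was larger for SNRNP200, in 226 it was equal and in 48 smaller. Against the set of up to 2 replicates the counts were 125 larger, 200 equal and 60 smaller of 385 genes. Against the set of up to 3 they were 217, 99 and 13 of 329 genes. The order of the coding share turned with the set. It was larger for SNRNP200 in 76 genes and smaller in 45 against the set of up to 2 replicates. Against the set of up to 3 it was larger in 33 genes and smaller in 202. Averaged over the 329 genes of the set of up to 3, 61.3% of the SNRNP200 windows and 12.5% of the G3BP1 windows of a gene were in the 3′UTR. Over the 385 genes of the set of up to 2 replicates the averages were 75.3% for SNRNP200 and 58.0% for G3BP1.

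The genes with the most identical windows were PRPF8 with 19, PRKDC with 18, NORAD with 16 and CTNNB1 with 7. PRPF8, the large U5 protein that binds SNRNP200 in the spliceosome, had 31 SNRNP200 windows on its mRNA, 27 of them coding. G3BP1 had 43 windows there, 41 of them coding, and all were in the set of up to 3 replicates. PRKDC, the catalytic subunit of DNA-dependent protein kinase, had 23 SNRNP200 windows, against 10 and 71 windows in the G3BP1 sets of up to 2 and up to 3 replicates. CTNNB1, which encodes β-catenin, had 12 SNRNP200 windows, against 4 and 20. Its SNRNP200 windows were 6 in the 3′UTR and 5 coding, and 15 of the 20 in the set of up to 3 replicates were coding.

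Of the other genes with many shared windows, LBR and TOMM20 were shared through the 3′UTR. LBR, the lamin B receptor of the inner nuclear membrane, had 8 SNRNP200 windows, against 10 and 0 in the same G3BP1 sets, all in the 3′UTR. TOMM20, a receptor for protein import into mitochondria, had 6 SNRNP200 windows, against 8 and 1, again all in the 3′UTR. HNRNPA2B1, which encodes an abundant nuclear RNA-binding protein, had 6 SNRNP200 windows, against 6 and 7. TUBB, a β-tubulin, had 8 SNRNP200 windows, against 1 and 11.

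NORAD is a long cytoplasmic noncoding RNA known for sequestering RNA-binding proteins. It carried 28 SNRNP200 windows with 1919 IP and 279 input reads. G3BP1 had 21 windows there in the set of up to 2 replicates, with 782 IP and 80 input reads, and 1 window in the set of up to 3. Of the 21 windows, 16 were identical to a SNRNP200 window. Mean log2 enrichment ranged over 1.47 to 4.37 with a median of 2.71 for SNRNP200, and over 3.07 to 6.89 with a median of 4.99 for G3BP1. Counted from the 5′ edge of the first window, the SNRNP200 windows ran from 98 to 5204 bases and the G3BP1 windows from 0 to 4615 bases.

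**Figure D2:**
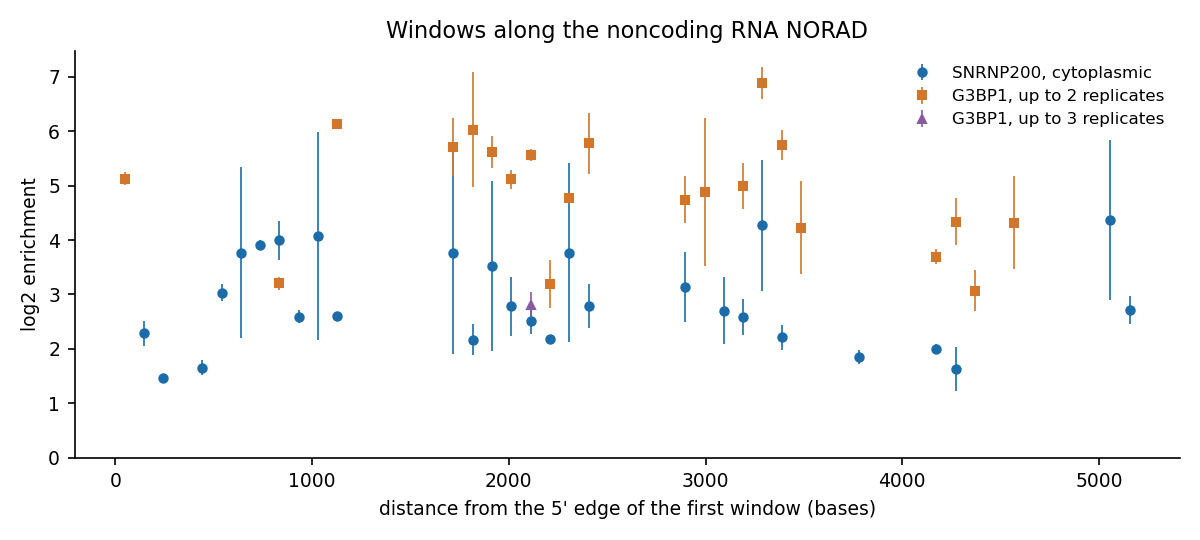
Log2 enrichment over input (y axis) of every window on NORAD against its distance from the 5′ edge of the first window in bases (x axis) for SNRNP200 and the 2 G3BP1 sets; points are the mean of the replicates and bars run from the lowest to the highest replicate. Of the 21 G3BP1 windows of the set of up to 2 replicates, 16 coincide with 1 of the 28 SNRNP200 windows.

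The genes with the most windows in the SNRNP200 list and none in the G3BP1 list were led by IRS4, an adaptor of insulin signalling, with 31 windows, 26 of them coding. They held 4232 IP and 574 input reads, and the strongest had 3.70 and 4.51 log2 enrichment in the 2 replicates. FOXC1, a forkhead transcription factor, had 18 windows with 2880 IP and 380 input reads. SLIT2, a secreted axon guidance protein, had 17 windows, of which 10 were in the 5′UTR. NSD1, a histone H3 lysine methyltransferase, also had 17, of which 11 were coding. GEMIN4, a subunit of the SMN complex that assembles snRNPs, had 16 windows, 15 of them coding. KCTD12, an auxiliary subunit of GABA-B receptors, had 15. ZC3H4, a zinc finger protein that restricts noncoding transcription, had 14, and the zinc finger protein ZNF503 had 13.

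The genes with the most windows in the G3BP1 list and none in the SNRNP200 list belonged to 1 set each, except FASN and RPL8. EEF2, the translation elongation factor that moves the ribosome along, had 25 windows with 2728 IP and 1538 input reads, 24 of them coding. PHGDH, the first enzyme of serine synthesis, had 21 windows. ASNS, asparagine synthetase, had 10, and SARS1, the cytosolic seryl-tRNA synthetase, had 9. All of these came from the set of up to 3 replicates. FASN, fatty acid synthase, had 4 windows in the set of up to 2 replicates and 17 in the set of up to 3, and RPL8, a ribosomal protein, had 1 and 12. LINC01002 had 18 windows and CH507-513H4.6 had 9, all in the set of up to 2 replicates. The CH507-513H4.6 and LINC01002 loci have similar copies elsewhere in the genome, so reads there are uncertain.

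**Figure D3:**
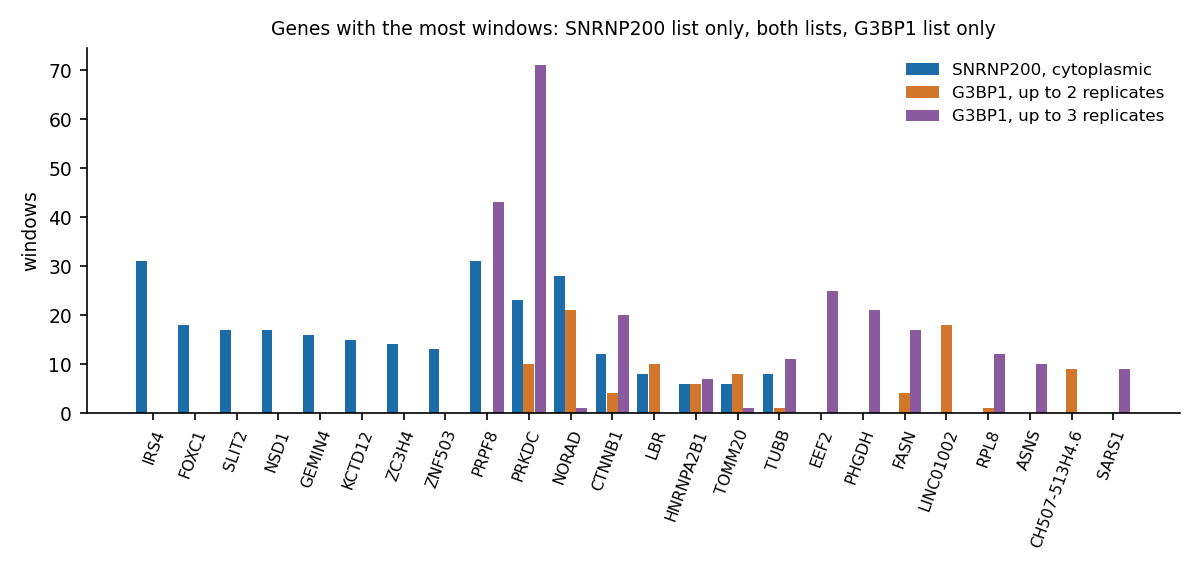
Number of windows (y axis) on the 8 genes with the most windows in the SNRNP200 list only, the 8 with the most identical windows and the 8 with the most windows in the G3BP1 list only (x axis, left to right), for SNRNP200 and the 2 G3BP1 sets. PRKDC has 23 SNRNP200 windows and 71 windows in the G3BP1 set of up to 3 replicates.

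Gene groups were described by how many members had a window, with no test. The share of all 9792 genes, 18.6% for SNRNP200 and 8.05% and 7.4% for the G3BP1 sets of up to 2 and up to 3 replicates, is the level to read them against. The whole G3BP1 list joins both sets, so its group shares are at least as high as those of either set, against a level of 12.6%. The counts are for all deposited windows, at q of at most 0.2. At q under 0.05 the SNRNP200 list is the shorter one, and 7 of the group orders described below turn round against the whole G3BP1 list. The difference in members, SNRNP200 minus G3BP1, is then given beside the group. The early response, mitosis, chromatin and amino acid transporter groups did not turn round. Not all of them kept more members with SNRNP200 than with G3BP1 at that threshold. Of 55 genes for stress granule proteins, 33 (60.0%) had a SNRNP200 window, against 19 (34.5%) and 16 (29.1%). At q under 0.05 the difference was −3 members. All 19 genes of the set of up to 2 replicates also had a SNRNP200 window, as did 14 of the 16 in the set of up to 3. Of all genes in these sets, 48.9% and 45.4% had a SNRNP200 window. EIF4G1, the scaffold of the cap-binding complex, had 14 SNRNP200 windows with 11 of them coding, against 7 and 8. LARP1, which binds the 5′ ends of ribosomal protein mRNAs, had 15 SNRNP200 windows, against 2 and 0. USP10, a deubiquitinase that binds G3BP1, had 3 windows in the SNRNP200 list only, and ELAVL1 had 1 window in the set of up to 3 replicates only.

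The mRNAs of the immunoprecipitated proteins themselves were also enriched. G3BP1 mRNA had 2 SNRNP200 windows, against 1 and 0 in the G3BP1 sets, all in the 3′UTR. SNRNP200 mRNA had 4 SNRNP200 windows, against 0 and 18, all coding. CAPRIN1, which encodes a partner of G3BP1 in stress granules, had 0, against 0 and 3.

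Several groups of regulatory mRNAs stood well above the 18.6% for SNRNP200 and near the background for G3BP1. Of 37 short-lived early response genes, 16 (43.2%) had a SNRNP200 window, against 3 (8.11%) in each G3BP1 set. JUN, an AP-1 transcription factor, had 16 SNRNP200 windows with 3531 IP and 417 input reads, against 0 and 1. MCL1, an anti-apoptotic protein with a very unstable mRNA, had 13, against 1 and 0. MDM2, the ubiquitin ligase of p53, had 9, against 2 and 0, and SOX4 had 9, against 0 and 0. Of 21 genes for the CCR4-NOT deadenylase and associated factors, 12 (57.1%) had a SNRNP200 window, against 2 (9.52%) in each set; at q under 0.05 the difference was −1. Of 49 genes of mitosis and the cell cycle, 19 (38.8%) had one, against 4 (8.16%) and 5 (10.2%).

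Chromatin regulators showed the same order, with 20 of 39 (51.3%) for SNRNP200, against 6 (15.4%) and 7 (17.9%). ARID1A, a subunit of the BAF remodelling complex, had 17 SNRNP200 windows, against 1 and 1. Of 13 amino acid transporters, 7 (53.8%) had a SNRNP200 window, against 2 (15.4%) in each set. SLC7A1, a cationic amino acid transporter, had 12 SNRNP200 windows, all in the 3′UTR, against 2 and 0. Of 38 cytosolic chaperones, 18 (47.4%) had a SNRNP200 window, against 4 (10.5%) and 9 (23.7%), with a difference of −2 at q under 0.05. Among 274 genes named ZNF the shares were low in every list: 32 (11.7%) for SNRNP200, against 11 (4.01%) and 8 (2.92%), with a difference of −8 at q under 0.05.

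The group of SR and hnRNP proteins, which bind pre-mRNA and set splice choices, had the highest SNRNP200 share of the groups with at least 10 members, with 36 of 44 genes (81.8%), against 22 (50%) and 25 (56.8%). At q under 0.05 the difference was −9. PTBP1 had 7 SNRNP200 windows, all in the 3′UTR, against 4, also all in the 3′UTR, and 11, of which 10 were coding. HNRNPK had 8 SNRNP200 windows with 7 in the 3′UTR, against 1 in the 3′UTR and 10 with 8 coding. For core spliceosome proteins the counts were 14 of 50 (28%), against 4 (8.0%) and 15 (30%). Nuclear transport factors had 21 of 48 (43.8%), against 4 (8.33%) and 19 (39.6%), and 21 (43.8%) in the whole G3BP1 list.

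Housekeeping groups varied in order between the lists. Of 85 ribosomal protein genes, 24 (28.2%) had a SNRNP200 window, against 22 (25.9%) and 39 (45.9%). Translation factors had 20 of 52 (38.5%), against 12 (23.1%) and 17 (32.7%), and 22 (42.3%) in the whole G3BP1 list. Glycolysis enzymes had 9 of 17 (52.9%), against 3 (17.6%) and 10 (58.8%). Nuclear genes of oxidative phosphorylation had 7 of 67 (10.4%), against 7 (10.4%) and 14 (20.9%), and proteasome subunits had 7 of 38 (18.4%), against 1 (2.63%) and 9 (23.7%). Replication-dependent histone genes had 11 of 50 (22%), against 6 (12%) and 43 (86.0%). Of 29 genes of ER chaperones and the unfolded protein response, 11 (37.9%) had a SNRNP200 window, against 4 (13.8%) and 5 (17.2%), with a difference of −3 at q under 0.05. Actins and tubulins had 7 of 11 (63.6%), against 6 (54.5%) in each set. Among 5 long RNAs known from stress granules, NORAD and 4 others, all 5 had a SNRNP200 window, against 1 and 2, and the difference was −1 at q under 0.05. DYNC1H1, the heavy chain of cytoplasmic dynein, had 6 SNRNP200 windows, against 0 and 47, of which 46 were coding. Histone and ribosomal protein genes have near-identical copies or pseudogenes, so their counts are uncertain.

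None of the small noncoding RNA genes of 3 groups had a window in the cytoplasmic SNRNP200 list, which keeps enriched windows only. Of 56 spliceosomal snRNA genes and copies, SNRNP200 had 0, against 1 (1.79%) and 9 (16.1%) for the G3BP1 sets. Of 35 snoRNA and scaRNA genes it had 0, against 18 (51.4%) and 8 (22.9%). Of 24 genes and copies for other small noncoding RNAs (7SK, 7SL, vault RNAs, Y RNAs and the RNase P family) it had 0, against 12 (50%) and 5 (20.8%). The G3BP1 members of this last group were pseudogene copies of 7SK and 7SL, and RNY1, RNY3 and VTRNA1-3. No main 7SK or 7SL gene and no RNase P RNA was among them. Reads on such copies are uncertain. SNORD118, the U8 snoRNA that acts in ribosomal RNA processing, had 2 G3BP1 windows with 1885 IP and 653 input reads in the set of up to 2 replicates. The G3BP1 libraries carry no fraction label, so the fraction and the protein cannot be told apart in this difference.

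**Figure D4:**
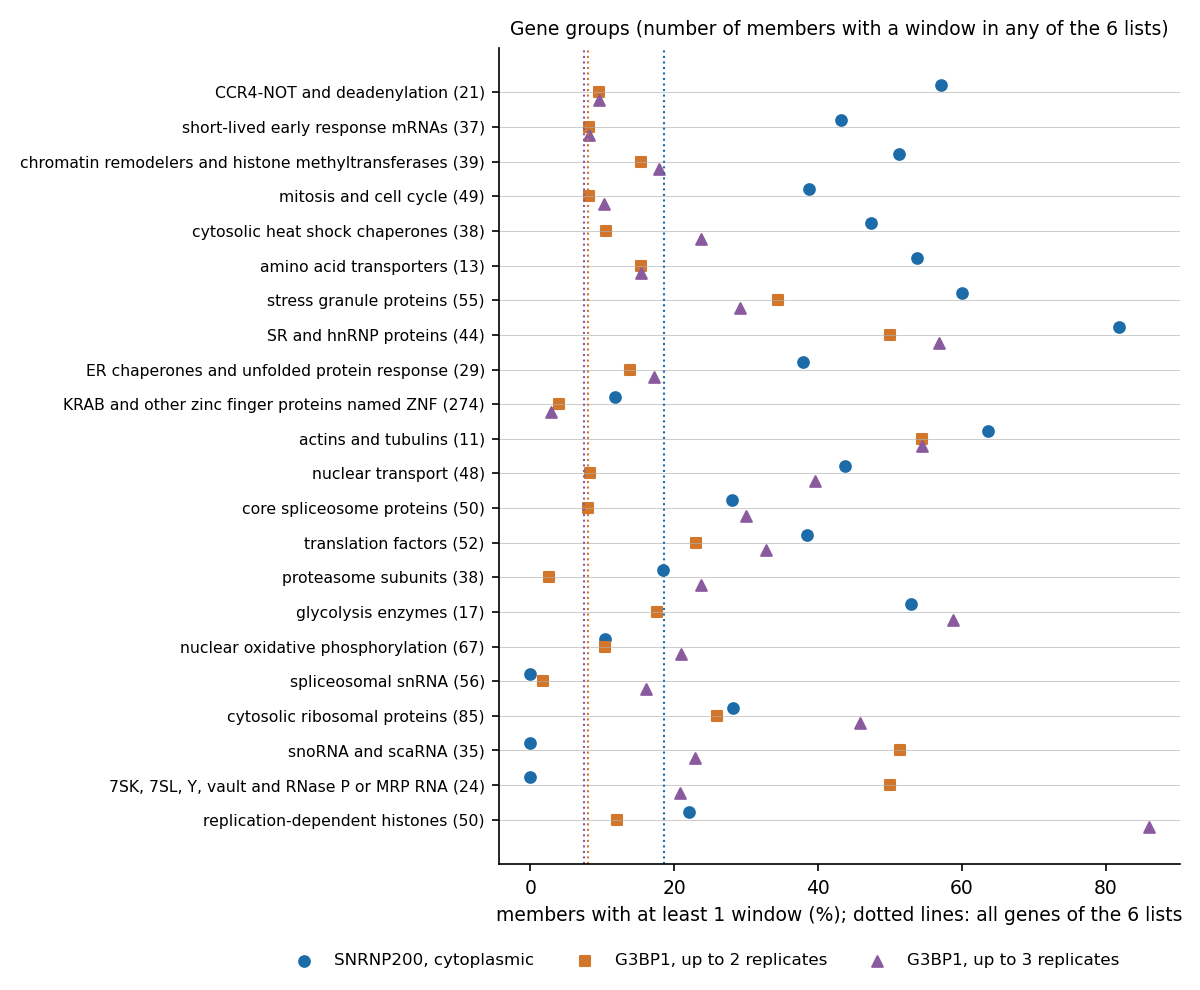
Share of the members of each gene group with at least 1 window (x axis, percent) for SNRNP200 and the 2 G3BP1 sets; the number after each group name counts the members found in at least 1 of the 6 lists, and dotted lines mark the share of all 9792 genes. SNRNP200 is at 57.1% for CCR4-NOT and at 0 for the 3 groups of small noncoding RNAs.

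The strength of enrichment was compared in the 239 windows identical with the set of up to 2 replicates. The authors' log2 enrichment had a median of 2.64 for SNRNP200 and 4.34 for G3BP1, and the median difference was −1.69 (SNRNP200 minus G3BP1), with 223 windows lower and 16 higher. The replicate values of the 2 proteins did not overlap in 177 windows (74.1%). The lists were normalised apart: a log2 enrichment of 0 stood for about 1.06 input reads per IP read in the SNRNP200 list and about 3.13 in the G3BP1 set. On the plain ratio of summed counts, log2((IP + 1)/(input + 1)), the median difference was 0.03. For the 218 windows shared with the set of up to 3 replicates, it was −0.44 on the authors' scale and 1.18 on the count ratio. The sign of the overall offset thus depended on the scale and on the set.

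After the differences were centred on their median, limma, applied to the 2 replicate values of each protein, called 0 of 239 windows (0.0%) at an adjusted p under 0.05. At an unadjusted p under 0.05 there were 15 higher and 14 lower. The smallest adjusted p was 0.111. Without centring, limma called 67 windows lower. Against the set of up to 3 replicates, limma called 1 of 218 windows, lower in SNRNP200. With 2 values in each group, differences of 1 or 2 log2 units planted in simulated windows were recovered in 0 of 40 and 0 of 40 cases, and differences of 3 and 5 units in 15 and 37 of 40. Across the 239 windows, which share libraries and differ in depth, Spearman's rho was 0.13 between the 2 proteins' mean enrichments and 0.48 between their IP counts. Across the 218 windows of the set of up to 3 replicates these were 0.29 and 0.35. Only windows enriched in both lists enter these comparisons. Windows of 1 protein alone are therefore left out, and the values are cut from below. Centring used a single median, although windows were scored in GC classes, so differences between classes can remain.

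**Figure D5:**
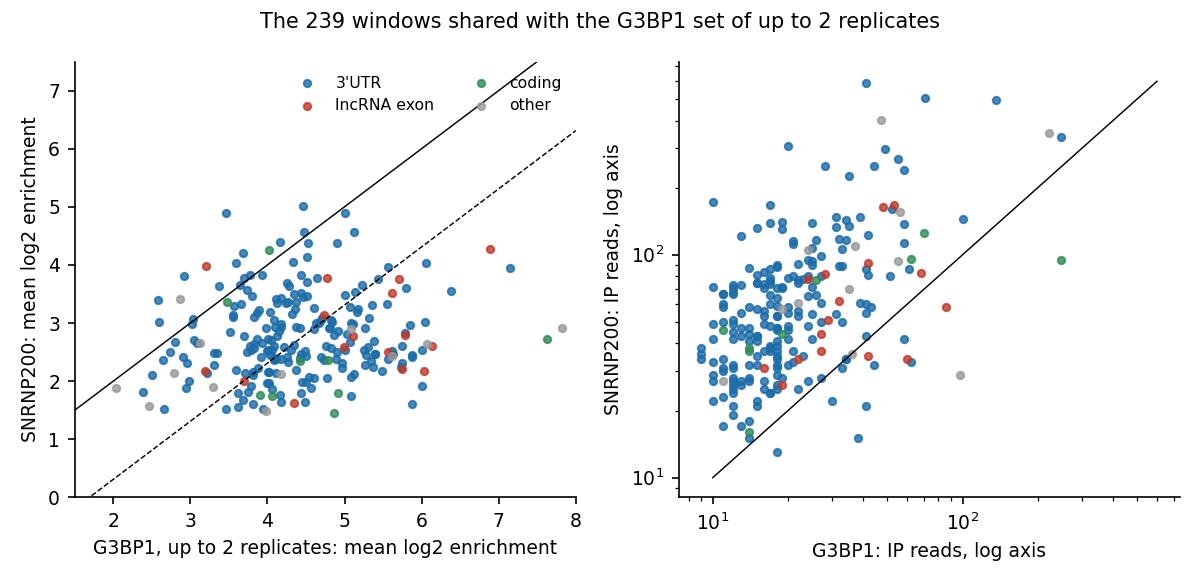
Left, mean log2 enrichment of the 239 windows identical with the G3BP1 set of up to 2 replicates for SNRNP200 (y axis) and G3BP1 (x axis), with the line of equal values solid and the median difference of −1.69 dashed; right, IP reads of the same windows on log axes, with the line of equal counts. Points are windows coloured by feature; 223 of the 239 lie under the line of equal enrichment.

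The windows with the widest differences are given with their values, and none passed the test as described. Among windows with at least 20 IP reads in both lists, the lowest centred differences were in the 5′UTR of PABPC1, which encodes the cytoplasmic poly(A)-binding protein, and in RPS21, a ribosomal protein. The PABPC1 window (chr8:100722004-100722088) had 352 IP and 56 input reads for SNRNP200, and 221 IP and 2 input reads for G3BP1. Its replicate values were 2.75 and 3.07 for SNRNP200, and 7.37 and 8.27 for G3BP1, which do not overlap. In the G3BP1 set of up to 3 replicates the same window had 54 IP and 13 input reads and values of 2.86 to 4.69, which overlap those of SNRNP200. The centred log2 difference was −3.22 (SE 0.78, limma adjusted p = 0.111) against the set of up to 2 replicates, and −0.5 (SE 0.6, limma adjusted p = 0.737) against the set of up to 3. Its limma adjusted p was 0.0418 with 1 window per gene, 0.0256 at q under 0.05 in both lists and 0.264 with a variance trend.

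The RPS21 coding window (chr20:62387843-62387914) had 95 IP and 15 input reads for SNRNP200, and 247 IP and 4 input reads for G3BP1. Its centred difference was −3.22 (SE 0.82, limma adjusted p = 0.111), and −0.42 (SE 0.64, limma adjusted p = 0.809) against the set of up to 3 replicates. Its limma adjusted p was 0.0418 with 1 window per gene, 0.0283 at q under 0.05 in both lists and 0.206 with a variance trend. 3′UTR windows of MTDH and NUTF2 and 1 window of NORAD followed, at −2.58, −2.4 and −2.16. In these 3 windows the G3BP1 input was 0, so their size rests on how the authors treated a count of 0.

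At the other end, a 3′UTR window of ZNF768 (chr16:30524175-30524259) had 113 IP and 7 input reads for SNRNP200, and 58 IP and 28 input reads for G3BP1. Its replicate values were 3.17 and 4.45 for SNRNP200, and 2.48 and 3.36 for G3BP1, and the centred difference was 2.58 (SE 0.81, limma adjusted p = 0.206), and 1.01 against the set of up to 3 replicates. HNRNPK, NORAD, SLC11A2 and HNRNPA2B1 windows followed, at 2.52, 2.48, 2.24 and 2.12. With a variance trend the HNRNPK and HNRNPA2B1 windows passed, with limma adjusted p of 0.0482 and 0.0498. HNRNPK was at 1.55 against the set of up to 3 replicates. Below the read minimum, and named after its values were seen, a 3′UTR window of SPEN had the highest centred difference of all 239, at 3.13 (limma adjusted p = 0.111), with 173 IP and 5 input reads for SNRNP200 and 10 and 3 for G3BP1. NORAD thus held windows at both ends of the range. The SLC11A2 window, in an intron, turned to −2.53 against the set of up to 3 replicates.

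The shared windows with the most reads were in ZNF664, PABPC1, HNRNPA2B1 and RPS21. The ZNF664 3′UTR window (chr12:124014185-124014281) had 337 IP and 50 input reads for SNRNP200, and 247 IP and 80 input reads for G3BP1, with replicate values of 1.94 and 2.27 for SNRNP200 and 2.46 and 2.54 for G3BP1. The HNRNPA2B1 3′UTR window with the most reads (chr7:26192049-26192145) had 496 IP and 57 input reads for SNRNP200, and 136 IP and 38 input reads for G3BP1. Its replicate values were 2.93 and 3.53, against 3.58 and 4.19. In both windows every uncentred SNRNP200 value was under every G3BP1 value, while the centred differences of 1.3 and 1.04 were positive and did not pass the test. In the set of up to 3 replicates the HNRNPA2B1 window had 108 IP and 93 input reads for G3BP1 and values of 2.12 and 2.29, both under those of SNRNP200.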

How the data were processed

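Reads were trimmed with fastp 0.11.5 and aligned with STAR 2.7.6 to hg38, per the submitters' processing notes; the window caller is not given in these sources. The deposited lists have no header. They hold, per window, whole-number counts of IP and input reads summed over replicates by the authors, the authors' log2 enrichment over input (lowest, mean and highest replicate), the deposited q-value (at most 0.2) and the deposited GC fraction. The lists keep enriched windows only, so a missing window is not a measured 0, and library depth is not known from them. The lists carry no replicate numbers.

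Windows were matched by coordinates and strand. A window in both G3BP1 sets kept the entry of the set of up to 2 replicates. Of the G3BP1 lines, 2 were blank and were left out. A window annotated to several genes counted for each. Shares have exact Clopper-Pearson intervals at 95%. limma 3.58.1 (R 4.3.3) compared the lowest and highest replicate values without pairing, two-sided, with Benjamini-Hochberg adjustment over all identical windows, after centring. It was tested on simulated data.

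Named genes were the 8 with most identical windows, the 8 with most windows in 1 list only, the 5 shared windows with most reads, the 5 highest and 5 lowest differences with at least 20 IP reads in both lists, and members of 26 gene lists with most windows. Other members of the lists, such as USP10 and ELAVL1, and the genes with shared windows at transcript starts, were named after their values were seen. The members and lists were chosen with earlier results of these data known. RefSeq (GRCh38.p14) gave the sequences. An item withheld for evaluation is not reported here.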

Additional observations from a re-analysis of the deposited data

How the results depend on the processing

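The 3′UTR share stayed higher for SNRNP200 in every alternative. The difference of 45.9 percentage points became 23.4 with the G3BP1 set of up to 2 replicates, 60.6 with the set of up to 3, 51.2 with 1 window per gene, 52.3 with windows weighted by IP count, 48.9 with equally long lists of lowest q, 53.5 with at least 20 IP and 10 input reads, and 36.7 in shared genes. The coding difference of −28.7 became 8.02, −49.1, −22.4, −6.67, −30.9 and −39.6 under the first 6 of these, and −20.4 at q under 0.05. The 5′UTR difference turned positive with the set of up to 3 replicates (2.18), with weighting (4.32) and with the read minimum (5.22), and the stop codon difference with the set of up to 2 replicates (1.35). The cause was not tested.

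Identical windows numbered 239 and 218 with the sets of up to 2 and up to 3 replicates, 43 at q under 0.05 and 233 with at least 20 IP reads. Shared genes numbered 329 with the set of up to 3, 104 at q under 0.05 and 212 with at least 2 windows. The median input difference of −3 reads became 1 and −5 with the 2 sets, an alternative chosen after seeing the data. Of 26 gene lists, 12 had more members with SNRNP200 than with G3BP1, 21 against the set of up to 2 replicates and 2 at q under 0.05, where the SNRNP200 list is much shorter. Against the set of up to 2 replicates the order turned for ribosomal proteins (2 more members with SNRNP200), translation factors (8; 3 against the set of up to 3), spliceosome proteins (10), proteasome (6), glycolysis (6), the immunoprecipitated proteins (1) and histones (5). At q under 0.05 it turned for stress granule proteins (−3), SR and hnRNP proteins (−9), cytosolic chaperones (−2), ER chaperones (−3), CCR4-NOT (−1), long stress granule RNAs (−1) and ZNF genes (−8).

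The median log2 difference of −1.69 became −0.44 with the set of up to 3 replicates and 0.03 on the count ratio, and −2.19 to −1.09 when 1 replicate value was left out. Those fits drop the lower or the higher value of every window, since the lists name no replicate; the sorting fixes the direction of the shift, and 1 group is left with a single value assumed to vary like the other. Their count of 0 calls therefore says nothing about stability. limma called 67 lower without centring, 1 higher and 2 lower with 1 window per gene, 1 and 1 with gene means, 2 lower at q under 0.05, 4 higher with a variance trend and 1 lower with the set of up to 3. Without centring the HNRNPA2B1 windows (−1.03 and −0.66) and ZNF664 (−0.4) turned negative. The first of these was −0.29 with the read minimum, and SLC11A2 was −2.53 with the set of up to 3 replicates. No paired analysis was possible because the lists carry no replicate numbers.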

Other observations

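The windows with the highest mean enrichment were of another kind than the bulk of each list. Of the 10 highest SNRNP200 windows 8 were in introns, against 8 of 10 in the G3BP1 set of up to 2 replicates and 9 of 10 in the set of up to 3, and none of the 10 was in the other protein's list. The highest SNRNP200 window lay in the coding sequence of SPIN4 (846 IP and 1 input reads, replicate values 8.18 and 9.68), followed by introns of UBTD2 (295 and 0), NFIA (219 and 0) and PRKCA (1000 and 5). All 10 were also in the CAPRIN list and in the whole-cell SNRNP200 list after arsenic, and none was in the cytoplasmic SNRNP200 list after arsenic. The highest G3BP1 window in both sets was in an intron of BTBD2, with 5441 IP and 1 input reads in the set of up to 2 replicates and 7468 and 6 in the set of up to 3.

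The 2 G3BP1 sets differed in what they shared with other lists. Of the cytoplasmic SNRNP200 windows 15.6% were in the untreated whole-cell SNRNP200 list, against 6.78% of the G3BP1 set of up to 2 replicates and 49.3% of the set of up to 3. The shares in the CAPRIN list were 32.8%, 43.9% and 63.7% in the same order. Where the third replicate comes from was not tested.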
